A study of Mus musculus with 8 samples.

Results

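The T helper lineage transcription factors examined here were Tbx21, Eomes, Runx3, Gata3, Rora, Ahr, Maf, Foxp3, Bcl6 and Prdm1, 10 genes of the 22180 that had a probe set with a single gene symbol. They were taken by name from a list that was chosen with earlier results of these data known. Each was read through its probe set with the highest mean over the 8 arrays, a choice of probe set that uses no difference between genotypes. The arrays are Affymetrix arrays of CD4+ T cells from a transfer model of colitis in mice. Per the labels, wt CD4+CD62L+ T cells carrying CD45.1 and Irak1-/- CD4+CD62L+ T cells carrying CD45.2, both labelled C57BL/6, were injected in equal numbers into Rag1-/- mice. These recipients lack T and B cells of their own. Both populations were recovered from the mesenteric lymph nodes after 14 days by sorting on CD3, CD4 and the CD45 form. The sources used here give neither the age of the animals nor the deleted part of Irak1. The 4 experiments used 2 pooled recipients each, so both arrays of a pair, 1 wt and 1 Irak1-/-, come from the same mice, and genotype goes with the CD45 form in every pair. With 4 arrays in a group, their number limits the precision.

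A T helper cell takes on its function through a lineage factor that switches on the cytokines and receptors of one programme and holds back the others. T-bet (Tbx21), with its T-box relative Eomes and with Runx3, drives the interferon-gamma programme of Th1 cells. GATA3 directs Th2 cells, RORalpha (Rora) acts in Th17 cells, and the aryl hydrocarbon receptor (Ahr) and c-Maf (Maf) shape Th17, follicular and IL-10-producing cells. Foxp3 defines regulatory T cells. Bcl6 and Blimp-1 (Prdm1) repress each other, the first in follicular helper cells and the second in effector cells. In the inflamed gut, Th1 and Th17 cells are the effectors of transfer colitis, and Foxp3+ cells restrain it. IRAK1 is a kinase that relays signals of the IL-1 receptor family and of Toll-like receptors.

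None of the 10 lineage factors passed the test between Irak1-/- and wt cells. In the limma fit over 13308 genes, 0 of 10 passed at an adjusted p under 0.05, where 0.0751% of all genes tested did, and 0 of 10 had an unadjusted p under 0.05, where 6.7% of all genes did. Adjusted p ran from 0.862 for Maf to 0.992 for Gata3. The groups overlapped for all 10 factors, while 3.04% of all genes tested had groups that did not overlap. The median log2 difference, Irak1-/- minus wt, was -0.08 over the 10 factors and -0.03 over all genes tested. A negative difference was seen for 8 of the 10, against 58.1% of all genes. The 95% confidence interval lay inside -1 to 1 on the log2 scale for 9 factors and inside -0.5 to 0.5 for 6, so the data bound most of these differences without showing that the levels were equal.

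**Figure D1:**
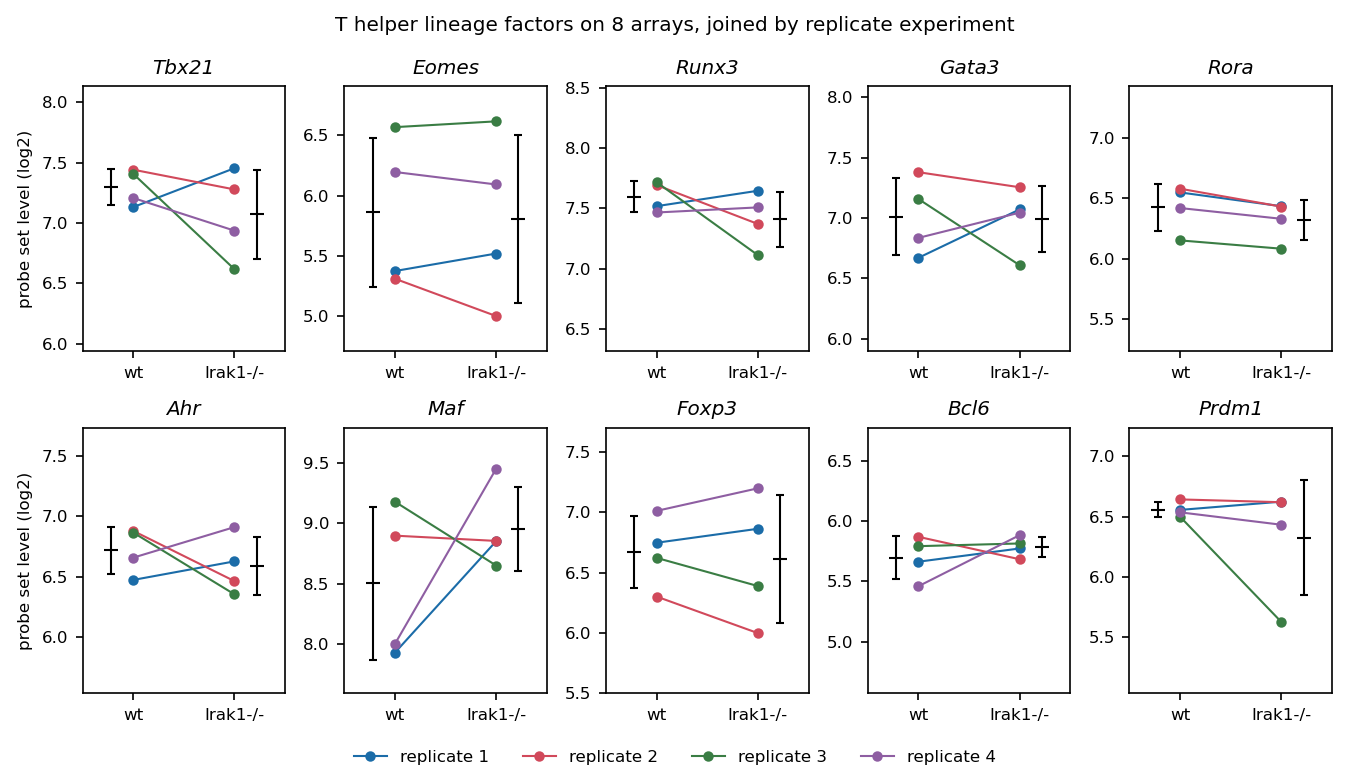
Log2 probe set level of each of the 10 lineage factors (vertical axis, the same span of 2.2 in each panel) on wt and Irak1-/- arrays. Coloured points are arrays, joined within a replicate experiment, and black bars are the mean and SD of 4 arrays; both groups overlap for each factor, and the line of replicate 3 drops most for Tbx21, Runx3, Gata3 and Prdm1.

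All 10 factors were measured well inside the range of the arrays, with each array's value above the highest array median over genes, which was 4.41. The sorted cells carried T cell transcripts, with Cd3e between 10.48 and 10.83 and Cd4 between 8.57 and 9.18 over both groups. Of 16 myeloid markers with a probe set, 15 had a higher mean on the Irak1-/- arrays. The log2 of their summed linear level ran from 8.86 to 9.003 in wt and from 9.67 to 10.45 in Irak1-/- arrays. Largest were the log2 differences of Lyz2 at 4.16, Tyrobp at 2.47 and Fcer1g at 1.89 (limma adjusted p = 0.00161, 0.00176 and 0.00176). These genes raised the sum most. Itgam was at 0.05, C1qa at 0.14 and Fcgr3 and Cd68 at 0.16, and Itgax was lower, at -0.59. Cd14, Csf3r and Ms4a7 read under every array median. NK and CD8 T cell markers had a summed level of 10.14 to 10.37 in wt and 9.57 to 9.91 in Irak1-/- arrays. Of these, 4 of 7 were lower in mean, and Ncr1, a defining receptor of NK cells, was under every array median. Over both groups Klrb1c read 3.36 to 4.37 and Cd8a 3.48 to 4.78, near the array medians over genes of 4.31 to 4.41. Cd8b1 read 5.09 to 6.32, Klre1 3.99 to 6.41, Klrk1 6.35 to 7.43 and Klrd1 8.98 to 9.99. Of 7 B cell markers with a probe set, 2 read under every array median, Ms4a1 and Ebf1. Cd79b read 4.37 to 5.63, and the highest values of Cd79a, Pax5, Cd22 and Blk were 4.42, 4.69, 4.71 and 4.56. Of 5 plasma cell markers, Sdc1, Jchain, Mzb1 and Tnfrsf17 read under every array median, and Xbp1 read 5.79 to 6.12. In bulk samples, fewer cells of a type and less RNA per cell cannot be told apart. The Irak1-/- array of replicate 3 stood apart, with correlations over genes of 0.972 to 0.978 with the other 7 arrays, which correlated among themselves at 0.984 to 0.990. Irak1 itself had a log2 difference of 0.07 (SE 0.129, limma adjusted p = 0.953), and since the deleted part is unknown this probe set does not check the genotype.

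The Th1 factor Tbx21 read lower on the Irak1-/- array in 3 of 4 pairs, with a difference that did not pass. In replicates 1 to 4 its log2 level was 7.13, 7.44, 7.41 and 7.21 on the wt arrays. On the Irak1-/- arrays it was 7.45, 7.28, 6.62 and 6.94. The wt arrays lay close together and the Irak1-/- arrays spread around them, from the highest of the 8 values in replicate 1 to the lowest in replicate 3. The fitted log2 difference was -0.23 (SE 0.168, 95% interval -0.61 to 0.16, adjusted p = 0.891), an interval that runs from 0.656 to 1.11 as a fold. Without replicate 3 it was -0.04, and without replicate 1 it was -0.41, with an unadjusted p of 0.0359 and an adjusted p of 0.718.

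Eomes, the T-box factor of cytotoxic and memory cells, differed more between experiments than between genotypes. Its wt levels in replicates 1 to 4 were 5.38, 5.31, 6.57 and 6.20. Its Irak1-/- levels were 5.52, 5.002, 6.62 and 6.09. Within each experiment both arrays lay within 0.31 of each other, while experiments 3 and 4 read higher than experiments 1 and 2 in both genotypes. The genotype difference was -0.05 (SE 0.117, 95% interval -0.32 to 0.21, adjusted p = 0.960), higher in 2 pairs and lower in 2.

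Runx3, which partners T-bet at Ifng, had wt levels of 7.52, 7.69, 7.72 and 7.47. Its Irak1-/- levels were 7.65, 7.37, 7.11 and 7.51. Replicate 3 gave the highest wt value and the lowest Irak1-/- value. The difference was -0.19 (SE 0.142, 95% interval -0.51 to 0.13, adjusted p = 0.893), and -0.05 without replicate 3. In the same pairs the log2 summed level of the NK and CD8 T cell markers, cells that also use Tbx21, Eomes and Runx3, differed by -0.38, -0.37, -0.73 and -0.49. This sum mostly follows Klrd1, the brightest of the 7, at -0.42, -0.29, -0.98 and -0.53, while Ncr1, Klrb1c and Cd8b1 had higher means in Irak1-/- arrays. Their part in the levels of the 3 factors was not tested.

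Gata3, the Th2 factor that all CD4+ T cells also need for their development, gave differences in both directions. Its wt levels were 6.67, 7.38, 7.16 and 6.83. Its Irak1-/- levels were 7.07, 7.25, 6.61 and 7.04. Pairs 1 and 4 were higher and pairs 2 and 3 lower, and the fitted difference was -0.02 (SE 0.159, 95% interval -0.38 to 0.35, adjusted p = 0.992). With quantile normalization it was 0.0072 and with median centring 0.0065, so its sign is not fixed. A second Gata3 probe set with a single symbol, 17366644, read 5.65, 6.04, 5.75 and 5.51 in wt and 5.84, 5.89, 5.97 and 5.90 in Irak1-/- arrays. Both probe sets had the same sign in pairs 1, 2 and 4 and opposite signs in pair 3, at -0.55 for 17381533 and 0.22 for 17366644. The second one had a difference of 0.17 (SE 0.121, adjusted p = 0.886 in the fit of every probe set).

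Rora was the 1 factor of the 10 that moved in a single direction in all 4 pairs, where 14.2% of all genes tested did so. This nuclear receptor of Th17 cells read 6.55, 6.58, 6.15 and 6.42 on the wt arrays. It read 6.43, 6.43, 6.08 and 6.33 on the Irak1-/- arrays. The pair differences were -0.11, -0.15, -0.07 and -0.09, a narrow spread (SD 0.0344) beside the median SD of 0.238 over all genes tested. The difference was small, at -0.11 (SE 0.102, 95% interval -0.34 to 0.13, adjusted p = 0.921). It exceeded the spread of its own 4 pairs but did not pass the limma test, whose SE draws on the spread of all genes, and the groups overlapped.

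The ligand-activated receptor Ahr had wt levels of 6.47, 6.88, 6.87 and 6.66. The Irak1-/- levels were 6.63, 6.46, 6.35 and 6.91. Pairs 2 and 3 were lower and pairs 1 and 4 higher, as for Gata3. Its difference was -0.13 (SE 0.153, 95% interval -0.48 to 0.22, adjusted p = 0.938), and -0.0031 without replicate 3.

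Maf had the largest difference of the 10 and the widest interval. This bZIP factor, an activator of Il4, Il10 and Il21, read 7.93, 8.90, 9.18 and 7.9999 on the wt arrays. It read 8.85, 8.85, 8.65 and 9.45 on the Irak1-/- arrays. The wt arrays formed a low pair of values, replicates 1 and 4, and a high pair, replicates 2 and 3, and the Irak1-/- value was higher where the wt value was low. Pair differences were 0.92, -0.04, -0.53 and 1.45, giving 0.45 (SE 0.283, 95% interval -0.19 to 1.10, adjusted p = 0.862). The value was 0.78 without replicate 3 (unadjusted p = 0.0132, adjusted p = 0.630) and 0.12 without replicate 4. A second Maf probe set, 17513289, did not follow it: it read 7.57, 7.42, 7.61 and 7.59 in wt and 7.53, 7.27, 7.73 and 7.71 in Irak1-/- arrays, a difference of 0.01 (SE 0.108, adjusted p = 0.991 in the fit of every probe set). In the same pairs the summed level of the myeloid markers, cells that can also express Maf, differed by 0.67, 0.97, 1.49 and 1.45. This sum rose most through Lyz2, Tyrobp and Fcer1g, and its part in the Maf values was not tested.

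**Figure D2:**
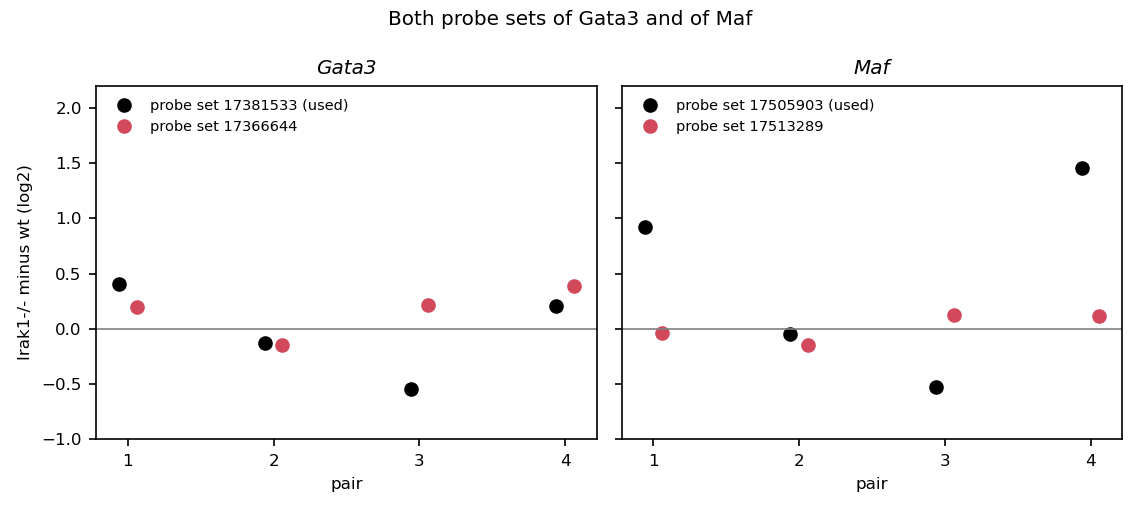
Irak1-/- minus wt differences (log2, vertical axis) in pairs 1 to 4 for both single-symbol probe sets of Gata3 and of Maf. Black points are the probe set used and red points the other one; for Maf the used probe set runs from -0.53 to 1.45 while the other stays between -0.15 and 0.12.

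Foxp3, the factor of regulatory T cells, read 6.75, 6.30, 6.62 and 7.01 on the wt arrays. On the Irak1-/- arrays it read 6.86, 6.00, 6.39 and 7.20. Both genotypes ranked the experiments in the same order, lowest in replicate 2 and highest in replicate 4, and the groups overlapped throughout. Its genotype difference was -0.06 (SE 0.125, 95% interval -0.34 to 0.23, adjusted p = 0.960), with 2 pairs higher and 2 lower.

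The follicular helper factor Bcl6 had wt levels of 5.66, 5.87, 5.79 and 5.46. Its Irak1-/- levels were 5.77, 5.68, 5.81 and 5.88. The Irak1-/- array was higher in 3 of 4 pairs, most in pair 4, whose wt array read lowest of the 8. The difference was 0.09 (SE 0.126, 95% interval -0.19 to 0.38, adjusted p = 0.948).

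Prdm1, which encodes the repressor Blimp-1 of effector T cells and plasma cells, had the tightest wt values of the 10, at 6.56, 6.64, 6.50 and 6.54 (SD 0.0610, n = 4). Its Irak1-/- values were 6.62, 6.62, 5.63 and 6.43. A single array, the Irak1-/- array of replicate 3, lay far below the other 7. The difference was -0.23 (SE 0.163, 95% interval -0.60 to 0.14, adjusted p = 0.879), and without replicate 3 it was -0.02.

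**Figure D3:**
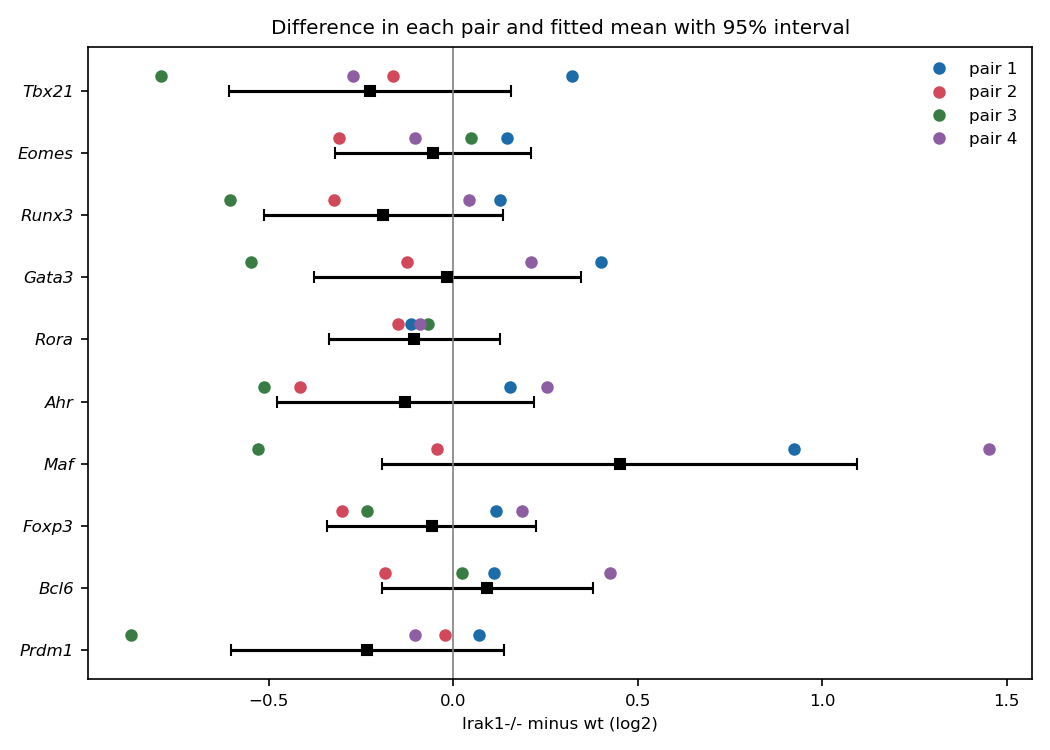
Irak1-/- minus wt difference (log2, horizontal axis) of each lineage factor. Coloured points are the 4 pairs, and black squares with bars are the fitted mean and its 95% confidence interval; each interval crosses 0, pair 3 lies lowest for Tbx21, Runx3, Gata3, Ahr, Maf and Prdm1, and the pairs of Rora lie together just below 0.

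The pairs gave different pictures of the whole set. In pair 1, 9 of 10 factors read higher on the Irak1-/- array, with a median difference of 0.14. In pair 2 all 10 read lower, with a median of -0.17. In pair 3, 8 read lower, with a median of -0.52, and in pair 4, 6 read higher, with a median of 0.11. Over all genes tested the medians of the same pairs were -0.0037, -0.04, -0.06 and 0.0021. Tbx21, Rora and Prdm1, 3 of 10, read lower in 3 or more pairs, against 37.5% of all genes tested.

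Pair 3 holds the array that stood apart. The Irak1-/- array of replicate 3 gave the lowest of the 8 values for 6 of 10 factors, namely Tbx21, Gata3, Rora, Ahr, Prdm1 and Runx3, against 29.3% of all genes tested, an observation made after the values were seen. It also gave the highest value of Eomes. Against its wt partner, the log2 summed level of the CD4+ T cell markers on that array differed by -0.15 and that of the myeloid markers by 1.49. In pair 4 the same differences were -0.06 and 1.45, so the myeloid difference was not particular to pair 3. The part of these cells in the low values was not tested. Without replicate 3 the median difference of the 10 factors was -0.01.

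Levels of Eomes and Foxp3 varied between the replicate experiments in both genotypes alike, without passing after adjustment. In the limma F test between the 4 experiments, a comparison added after the values were seen, 2 of 10 factors and 9.66% of all genes had an unadjusted p under 0.05, and after adjustment 0 of 10 factors and 0% of all genes passed. The mean of both arrays of Eomes was 5.45, 5.16, 6.59 and 6.14 in experiments 1 to 4, a range of 1.44 (unadjusted p = 5.59e-05, adjusted p = 0.248). For Foxp3 it was 6.81, 6.15, 6.51 and 7.11, a range of 0.96 (unadjusted p = 0.00275, adjusted p = 0.392). The median range over all genes tested was 0.305. For the other 8 factors the range ran from 0.132 for Bcl6 to 0.568 for Prdm1. Eomes read highest in experiment 3 and Foxp3 in experiment 4.

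**Figure D4:**
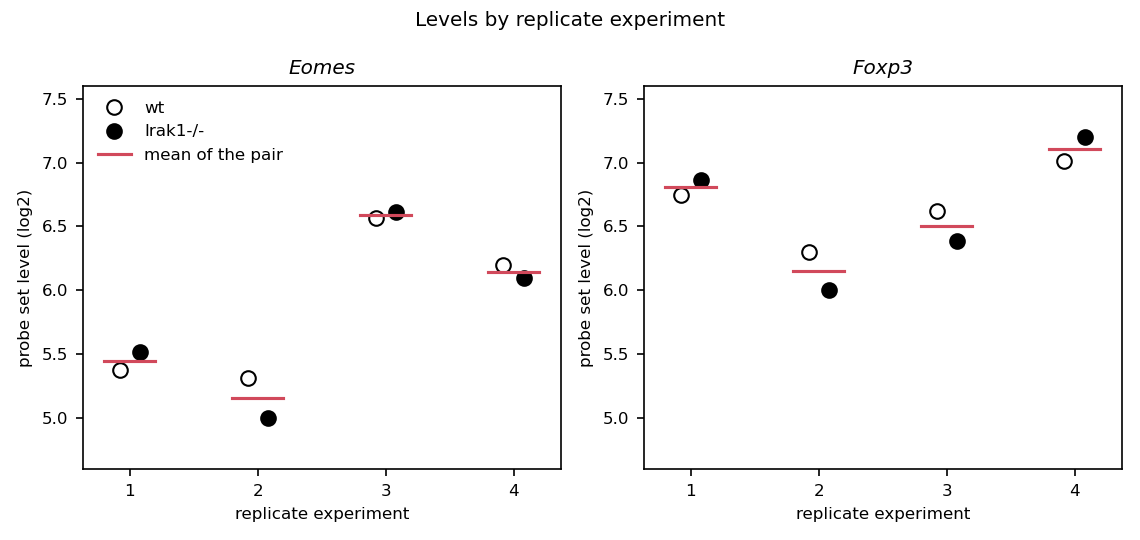
Log2 probe set level (vertical axis) of Eomes and Foxp3 in the 4 replicate experiments. Open points are wt arrays, filled points Irak1-/- arrays and red lines the mean of the pair; both arrays of an experiment lie together, and the pair means range over 1.44 for Eomes and 0.96 for Foxp3.

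Opposed factors were compared as a within-array log2 difference, Irak1-/- minus wt, in 4 combinations. Tbx21 minus Gata3 was lower on the Irak1-/- array in 4 of 4 pairs, at -0.08, -0.04, -0.24 and -0.48, with a mean of -0.21 (SD 0.200, n = 4). A two-sided exact sign-flip permutation test gave p = 0.125, the smallest that 4 pairs allow, and 0.5 when adjusted over the 4 combinations. These values use the Gata3 probe set with the higher mean. In pair 1, Tbx21 differed by 0.32 and the second Gata3 probe set, 17366644, by 0.20. With that probe set Tbx21 minus Gata3 was higher in pair 1 and lower in the other pairs. The single direction therefore depends on the probe set, and the exact test was not run with the second one. Bcl6 minus Prdm1 was positive in 3 of 4 pairs, with a mean of 0.33 (SD 0.477, exact p = 0.375), and highest in pair 3, at 0.89. Foxp3 minus Rora had a mean of 0.05 (SD 0.239, exact p = 0.75), and Tbx21 minus Bcl6 of -0.32 (SD 0.512, exact p = 0.5), each positive in 2 pairs. No combination could reach an adjusted p under 0.05 in this design.

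Upstream sequences are shown for 3 factors, chosen after the search because they held the most motif matches; the stretches of Tbx21, Eomes, Gata3 and Bcl6 held none. RefSeq entries (GRCm38.p6) gave 11 start sites for 8 of the 10 factors; Ahr and Maf had none. The 250 bases before each start were searched on both strands for 8 motifs: GGTGTGA for the T-box family, AGATAA for GATA factors, AGGTCA for the ROR receptors, GCGTG for AHR, GTAAACA for forkhead factors, TGTGGT for RUNX factors, TGANTCA for AP-1, and the NF-kappaB motif. Capitals mark these letters, which did not overlap one another. The Runx3 stretch is at chr4:135120395-135120644 (plus strand, first start site), that of Prdm1 at chr10:44458749-44458998 (minus strand) and that of Foxp3 at chrX:7580233-7580482 (plus strand, second start site).
Runx3: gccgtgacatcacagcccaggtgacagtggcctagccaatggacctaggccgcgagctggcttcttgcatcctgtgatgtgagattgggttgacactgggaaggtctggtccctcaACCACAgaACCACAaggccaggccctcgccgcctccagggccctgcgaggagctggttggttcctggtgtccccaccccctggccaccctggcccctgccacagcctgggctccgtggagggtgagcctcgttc
Prdm1: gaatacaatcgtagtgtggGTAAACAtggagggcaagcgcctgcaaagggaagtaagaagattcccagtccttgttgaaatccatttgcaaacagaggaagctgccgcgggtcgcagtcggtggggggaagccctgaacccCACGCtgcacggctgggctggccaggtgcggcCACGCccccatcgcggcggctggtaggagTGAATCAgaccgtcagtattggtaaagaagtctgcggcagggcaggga
Foxp3: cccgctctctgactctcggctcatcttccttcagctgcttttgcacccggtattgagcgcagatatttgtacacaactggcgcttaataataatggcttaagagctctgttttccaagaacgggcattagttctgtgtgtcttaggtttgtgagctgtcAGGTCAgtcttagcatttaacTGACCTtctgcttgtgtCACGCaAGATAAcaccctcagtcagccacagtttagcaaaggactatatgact
The Runx3 stretch held 2 RUNX matches, starting 134 and 126 bases before the start site, a motif found in 14.0% of all 32851 promoters. The Prdm1 stretch held 2 AHR matches (28.2% of promoters), 1 forkhead match (3.17%) and 1 match to the AP-1 letters (6.75%). The AP-1 letters as searched allow any base at the middle position, N, which is A in the Prdm1 match. The Foxp3 stretch held 2 ROR matches (14.0%), 1 GATA match (9.99%) and 1 AHR match. The T-box letters (3.33% of promoters) and the NF-kappaB motif (1.41%) were in none of the 11 stretches. Over the 8 factors, 5 of 11 stretches held a match. Rora and the first Foxp3 start site each had 1 AHR match besides those shown. The share of all promoters that hold any of the 8 motifs was not counted, so 5 of 11 has no background beside it. A match describes the letters only, and no binding was measured here.

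No other factor or cofactor of T helper cells on the list passed either. Of 45 listed, 40 were tested and 0 passed in limma after adjustment. Unadjusted p was under 0.05 for 4 of them (10%, against 6.7% of all genes), of which 3 read lower and 1 higher. Leaving out replicates 1 to 4 in turn gave 5, 3, 2 and 1. Their median difference was -0.01. Ikzf3, the Ikaros family factor Aiolos, differed by -0.46 (SE 0.131, adjusted p = 0.476), Bhlhe40, a factor of cytokine production in Th1 and Th17 cells, by -0.35 (SE 0.131, adjusted p = 0.655) and Irf1, an interferon-induced factor, by -0.30 (SE 0.111, adjusted p = 0.660). Id3, an inhibitor of E proteins in naive and follicular cells, differed by 0.37 (SE 0.116, adjusted p = 0.552). Taken for the smallest p of the list, these 4 moved one way in all 4 pairs, where 14.2% of all genes tested did so. For Bhlhe40 the groups did not overlap, as for 3.04% of all genes tested.

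Genes linked to these factors were read beside them, and 0 genes of any list below passed after adjustment in limma. The lists were chosen with earlier results of these data known, so their counts are a description only. Over all genes tested, 58.1% had a negative difference and 6.7% had an unadjusted p under 0.05. Th1 genes, the readout of Tbx21, Eomes and Runx3, had negative differences for 13 of 13 tested and a median of -0.27. Unadjusted p was under 0.05 for 7 of them (53.8%). Fasl, a death ligand, was at -0.58 (adjusted p = 0.401), Ifng, the Th1 cytokine, at -0.62 (0.404), Tnf at -0.50 (0.404) and Prf1, the pore-forming protein perforin, at -0.49 (0.449). For Fasl and Prf1 the groups did not overlap, as for 3.04% of all genes tested. Without replicate 3 the list's median was -0.18, and 4 had an unadjusted p under 0.05. The T-bet gene itself stood at -0.04 in that setting. The summed level of NK and CD8 T cell markers, which mostly follows Klrd1, was lower in the same pairs. Ncr1 read under every array median, and Klrb1c and Cd8a read near those medians. Prf1 and Fasl are also genes of NK and CD8 T cells, and the part of such cells was not tested.

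Th17 genes, the readout of Rora, had positive differences for 8 of 10 tested and a median of 0.10, with Il1r1, the IL-1 receptor, at 0.50 (adjusted p = 0.404), Il22 at 0.50 (0.660), Ccr6 at 0.38 (0.778) and Il17a at 0.24 (0.898). The list held 2 with an unadjusted p under 0.05 (20%, against 6.7% of all genes). It held 1 without replicates 1 or 3 and 4 without replicate 2. Its median was 0.22 without replicate 3 and differed in sign between pairs, at -0.22 in pair 2 and 0.44 in pair 4. Rora itself was at -0.11. Of 8 genes that respond to AHR ligands, Cyp1a1, Cyp1a2, Cyp1b1, Ahrr, Nqo1 and Gpr15 read below the level needed for testing, and of the 2 tested Tiparp was at -0.17 (adjusted p = 0.911) and Il22 at the value above.

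Follicular helper genes, the readout of Bcl6, had positive differences for 9 of 10 tested and a median of 0.16. Unadjusted p was under 0.05 for 4 of the 10 (40%, against 6.7% of all genes). Leaving out replicates 1 to 4 in turn gave counts of 2, 4, 1 and 0. Cd200 was at 0.49 (adjusted p = 0.580), Cxcr5 at 0.46 (0.642), Btla at 0.30 (0.655) and Il21 at 0.34 (0.736), and Bcl6 itself at 0.09. For Cd200 the groups did not overlap, as for 3.04% of all genes tested. In the IL-10 list, of Il10, coinhibitory and other genes read beside Maf and Prdm1, the median over 9 was -0.03. Icos was at 0.14, Lag3 at -0.16 and Pdpn at -0.12, and Il21 alone had an unadjusted p under 0.05. Without replicates 1, 3 or 4 the count was 0. Genes of regulatory T cells had a median of 0.07 over 12 tested; Itgae was at 0.61 (adjusted p = 0.352), Izumo1r, the folate receptor 4, at 0.25, Il2ra at -0.25 and Nt5e at 0.19, and 1 had an unadjusted p under 0.05, or 2 without replicates 1, 2 or 3. Th2 genes gave 3 tested of 9, with Ccr4 at 0.41, Il13 at 0.19 and Ccr8 at -0.17, while Il4, Il5 and Il17rb read below the level needed for testing. Over all genes tested the median was -0.03. The share with an unadjusted p under 0.05 was 11.1% in the IL-10 list and 8.33% in the regulatory T cell list, near the 6.7% of all genes.

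**Figure D5:**
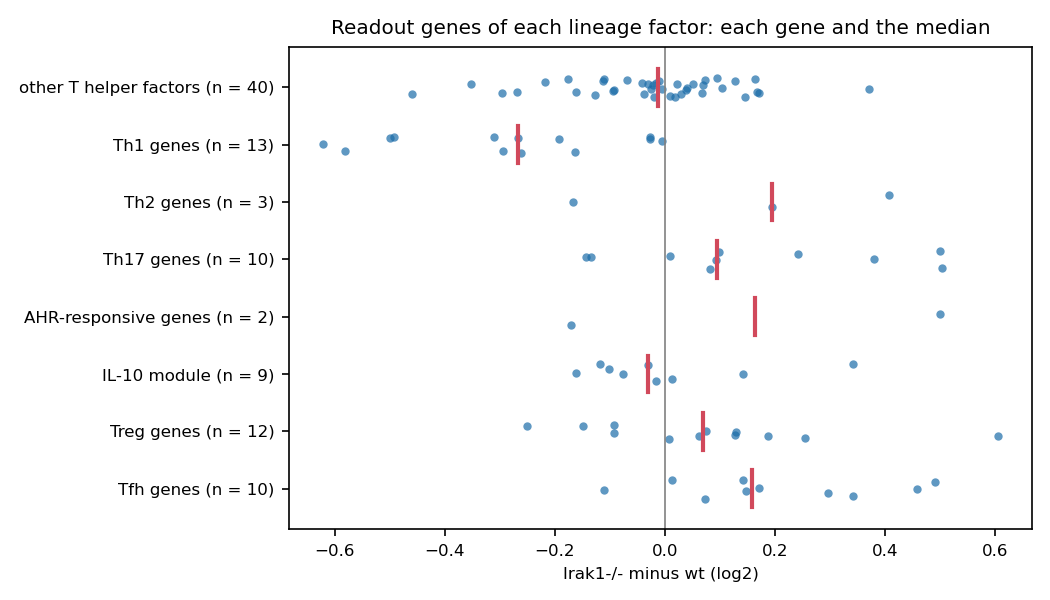
Irak1-/- minus wt difference (log2, horizontal axis) of each tested gene in the lists read beside the lineage factors. Points are genes and red lines list medians; all 13 Th1 genes lie below 0 (median -0.27), 9 of 10 follicular helper genes lie above it (median 0.16), and no gene passed after adjustment.

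Genes with the pattern most like each factor were taken by Pearson correlation of levels with the experiment means removed, over 8 arrays that hold 4 independent pair differences. With so few values the closest of 13308 genes always correlate highly, here at 0.994 or more, so the names are a description only. Closest were Zdhhc20 and Mtmr9 to Tbx21, Lancl3 and Gm11714 to Eomes, Prim2 and Klhdc4 to Runx3, and Slc7a7 and Sfmbt1 to Gata3. Cdkn3 and Clec18a were closest to Rora, Lta and Angptl4 to Ahr, Gne and C330018D20Rik to Maf, and Trrap and Prdm4 to Foxp3. Pdhx and Irgm1 were closest to Bcl6, and Glmp and Lgals1 to Prdm1. None of these 20 passed in limma after adjustment, and without replicate 3 their correlations ran from 0.990 to 1.00.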

How the data were processed

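Expression was measured on 8 Affymetrix arrays, 4 wt and 4 Irak1-/-, with total RNA labelled with biotin, per the labels. Values were used as the authors deposited them, on a log2 scale for 41345 probe sets; no source used here says how they were normalized. Probe sets were named through the platform annotation (23521 with 1 symbol, 1814 with several, 16010 unnamed here), with symbols updated by gene identifier from the GRCm38.p6 gene table. The probe set with the highest mean was kept for each of 22180 genes, and the 13308 genes above the 40th percentile of mean level were tested with limma 3.58.1 (lmFit, eBayes) in R 4.3.3. The batch label was a block, tests were two-sided, p was adjusted by Benjamini-Hochberg over all genes tested, and an adjusted p under 0.05 was called. The procedure was tested on simulated data. Pairing comes from the labels, since both arrays of a batch share recipients; deviations from the group means correlated at 0.185, 0.143, 0.200 and 0.0799 within pairs 1 to 4, and at -0.222 to 0.226 between arrays of different pairs. The labels do not say how many donor mice gave the cells.

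The 10 factors and the gene lists were chosen with earlier results of these data known. Named genes are the 10 factors, up to 4 genes per list with the smallest p, the 2 genes closest in pattern to each factor, Irak1, and marker lists. Markers were summed as linear levels per array before log2. The 14 alternatives changed the block (none, or random), the scaling (quantile or median centring), the level filter (none, or the 60th percentile), the probe set (their mean, or each tested), the eBayes settings (trend and robust), and the arrays (without each replicate in turn, or without the Irak1-/- array of replicate 3 and no block). The test between experiments, the second probe sets and the lowest array were looked at after the data were seen.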

Additional observations from a re-analysis of the deposited data

Results flagged for a closer look

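In 74 groups of 4 arrays (37 named genes), 4 held 1 array whose gap to the nearest of the other 3 took up more of the group's range than Dixon's 95% critical value allows; chance gives about 1 in 20 groups. None of the 20 groups of the lineage factors passed that limit, although the Irak1-/- array of replicate 3 lay well below the others for Prdm1, at 5.63 against 6.43 to 6.62. The Irak1-/- array of replicate 1 read 7.34 for Irf1, the next highest being 6.80. The wt array of replicate 3 read 6.70 for Tiparp, the next highest being 6.40. The wt array of replicate 1 read 5.87 for Lag3, the next lowest being 6.45. The Irak1-/- array of replicate 3 read 7.89 for Btla, the next highest being 7.47.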

How the results depend on the processing

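Over 14 alternatives, 140 values of the 10 lineage factors gave 0 calls, with a lowest adjusted p of 0.630, and 12 of them changed sign. Leaving out each replicate in turn moved the log2 difference of Eomes from -0.12 to 0.030, of Gata3 from -0.15 to 0.16, of Foxp3 from -0.14 to 0.023 and of Bcl6 from -0.018 to 0.19; for Ccr8 it ran from -0.53 to 0.22, for Tiparp from -0.27 to 0.029, for Pdpn from -0.27 to 0.019 and for Foxp3 minus Rora from -0.030 to 0.12. The number of factors with an unadjusted p under 0.05 ran from 0 to 1 (Tbx21 without replicate 1, Maf without replicate 3). Gata3 was 0.0072 with quantile normalization, 0.0065 with median centring and 0.075 as the mean of its probe sets. Without the Irak1-/- array of replicate 3 and without a block, Eomes was -0.32 (main value -0.05), Gata3 0.11, Foxp3 0.016, Prdm1 0.00051, Ccr8 0.19 and Pdpn 0.014. The cause was not tested. Without the replicate block that pairs the arrays, 0 factors were called and 0 had an unadjusted p under 0.05, as with it. Depth does not apply to arrays, and background signal is not given, so how far a level lies above it is unknown.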
